A study of Homo sapiens with 2 samples.

Results

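Integrins and laminins are the chains by which cells hold on to one another and to the matrix around them. The 37 genes described here were chosen by family membership, with earlier results of these data known, from the 19974 protein-coding genes of the autosomes and the X chromosome. They comprise 26 integrin genes (18 alpha and 8 beta subunits) and 11 laminin chain genes (5 alpha, 4 beta and 2 gamma chains). Their chromatin was read in J76, an acute T-lymphoblastic leukemia line known as a Jurkat derivative without T cell receptor chains, and in 293T, an adherent human embryonic kidney line that carries the SV40 large T antigen and is labelled T293. Both were harvested in logarithmic growth, with no treatment given in the labels. The assay was ATAC-seq, in which Tn5 transposase inserts sequencing adapters into open chromatin, here with enzyme the submitters made themselves and 50000 cells per reaction.

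Each line gave 1 library, so differences between them have no replicate check and were not tested. The authors called 59631 peaks in J76 and 85597 in 293T. The lists carry no read counts, so their depth is unknown, and a missing peak does not show that a site was closed. Of 12 T cell marker genes, 11 had a peak at a gene end in J76 and 3 in 293T, and CD5 had none in either. The 293T peaks, at CD3D, CD247 and PTPRC, were at the far end of the gene. Of 9 genes of kidney development, 2 had one in J76 and 6 in 293T, while PAX8 and OSR1 had none in either. Over all genes the shares were 64.6% in J76 and 69.7% in 293T, so the kidney genes had peaks in 293T about as often as other genes. Within 1 kb of a listed transcription start, 7 of 8 T cell genes had a peak in J76 and 0 in 293T. Of 4 kidney genes with a listed start, 1 had a peak there in J76 and 3 in 293T. Of 15812 such genes in all, 10574 had one in J76 and 11353 in 293T. Markers of other cells were mostly without a peak at a gene end: in J76 one was found at 0 of 5 myeloid, 0 of 4 B cell, 1 of 4 megakaryocyte and 1 of 5 fibroblast and endothelial genes, and in 293T at 2, 0, 1 and 3 of these.

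Integrins are receptors made of an alpha and a beta chain. The beta2 and beta7 integrins and those with alpha4 serve leukocytes in binding to other cells, to vessel walls and to epithelia. Most of the remaining pairs bind collagens, laminins, or proteins with an arginine-glycine-aspartate (RGD) motif such as fibronectin and vitronectin. Laminins are cross-shaped trimers of an alpha, a beta and a gamma chain, and they are the base of the basement membranes on which epithelial, muscle and endothelial cells sit.

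A gene-end peak is one that overlaps the 1 kb on each side of a gene's lower or upper coordinate. Such a peak was found for 19 of the 37 members in both lines and for 3 in J76 only. It was found for 11 in 293T only, and 4 members had none. Over all protein-coding genes these classes made up 60.7% (both), 3.94% (J76 only), 9.09% (293T only) and 26.3% (neither). Every laminin chain gene had a peak in 293T, whereas the 8 leukocyte integrins were spread evenly over the 4 classes. Of the 17 matrix-binding integrins, 12 had peaks in both lines. When a −log10 q of 5 was required, 34 of the 37 members kept their class, and with a window of 500 bp 32 did.

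**Figure D1:**
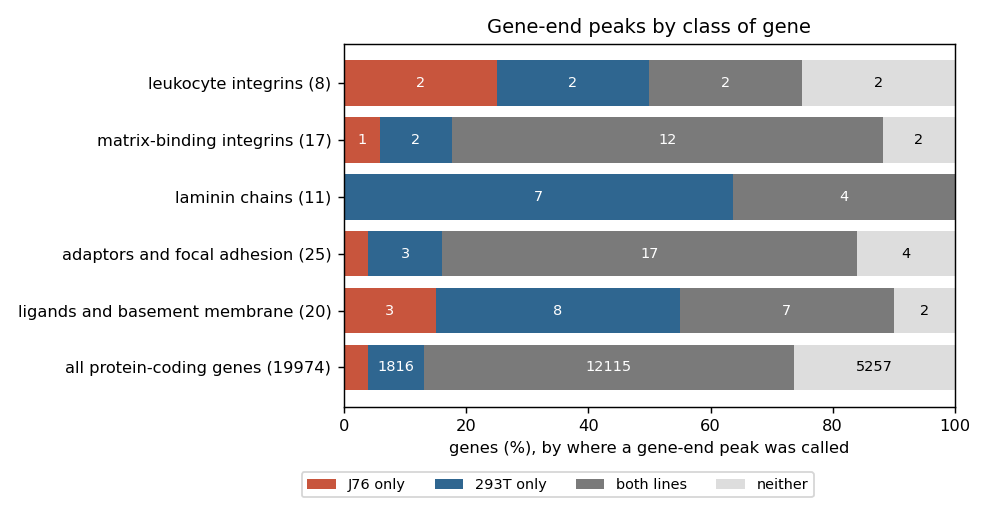
Share of genes in each class (horizontal axis, %) by where a gene-end peak was called, with the number of genes written in the larger bars and the number in each class in brackets. Of the 11 laminin chains, 0 had one in J76 alone and 7 in 293T alone, against 786 (J76 only) and 1816 (293T only) of 19974 genes.

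The leukocyte integrins did not move as a block. Of the 8, 4 had a gene-end peak in J76 and 4 in 293T (of all genes, 64.6% in J76 and 69.7% in 293T). Both chains of the lymphocyte receptor LFA-1, which binds ICAM molecules, had one in J76 only. ITGAL, its alpha chain, had a J76 peak of fold 5.22 at its lower-coordinate end (chr16:30472449-30472786, −log10 q 10.3), and the nearest 293T peak lay 3139 bp from a gene end. ITGB2, the common beta chain of LFA-1 and of the myeloid receptors, had a J76 peak of fold 4.04 inside its upper-coordinate end (chr21:44927531-44928254, −log10 q 12.4), and the nearest 293T peak was 6921 bp away. Fold here is the authors' enrichment over background, and q the false discovery rate they report. By fold, the ITGAL peak was at percentile 55.7 of the J76 list and the ITGB2 peak at 34.1.

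ITGAM and ITGAX, the alpha chains of the macrophage and dendritic cell receptors that pair with ITGB2, had a gene-end peak in 293T only. The ITGAM peak was not at the start of the gene. It (fold 3.96, chr16:31333779-31333978) lay 902 bp beyond the far end of the gene, and the listed ITGAM start had no peak of either line within 1 kb. The ITGAX peak (fold 5.99, chr16:31382576-31382881) was at the upper-coordinate end. ITGAD, another myeloid alpha chain, and ITGAE, which pairs with ITGB7 and holds T cells to epithelial cadherin, had none in either line. Thus 0 of the 3 myeloid alpha chains had a gene-end peak in J76.

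ITGA4, which pairs with ITGB1 or ITGB7 to bind VCAM-1 on vessel walls, had a strong peak at its start in both lines. The J76 peak had a fold of 7.50 (chr2:181456494-181458328) and the 293T peak a fold of 10.1 (chr2:181456679-181458190), at percentiles 78.8 (J76) and 95.5 (293T) of their lists. ITGB7 was also counted in both (folds 3.99 in J76 and 4.91 in 293T), but at its far end, 898 bp (J76) and 878 bp (293T) outside the gene. Its listed start had no peak in either line. The promoters of ITGA4 (a peak in both lines) and ITGAE (no peak in either) are shown to set a CpG-rich start beside a CpG-poorer one, chosen after their values were seen. Each runs from 250 bases before to 50 after the listed transcription start on the gene's strand, from RefSeq (GRCh38.p14), at chr2:181457136-181457435 (+) for ITGA4 and chr17:3801139-3801438 (-) for ITGAE. The ITGA4 window holds 31 CpG dinucleotides and the ITGAE window 10.
ITGA4: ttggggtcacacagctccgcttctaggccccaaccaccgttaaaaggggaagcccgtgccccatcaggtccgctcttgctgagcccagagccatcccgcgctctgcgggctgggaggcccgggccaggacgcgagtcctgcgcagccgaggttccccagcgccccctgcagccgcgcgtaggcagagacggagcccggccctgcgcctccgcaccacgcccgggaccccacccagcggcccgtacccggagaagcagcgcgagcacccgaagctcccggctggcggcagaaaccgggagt
ITGAE: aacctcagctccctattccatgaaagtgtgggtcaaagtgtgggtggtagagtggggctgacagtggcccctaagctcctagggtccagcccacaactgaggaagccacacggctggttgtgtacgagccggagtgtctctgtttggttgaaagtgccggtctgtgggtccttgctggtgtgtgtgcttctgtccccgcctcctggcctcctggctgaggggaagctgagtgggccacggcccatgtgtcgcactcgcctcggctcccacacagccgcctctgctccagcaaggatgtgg
Neither window holds any of 6 short motifs searched on both strands, which are printed in capitals where they occur in the promoters shown further on. The AP-1 letters TGANTCA are in 6.15% of 22132 promoters of protein-coding genes. The RUNX letters are TGTGGT and lie in 11.3% of those promoters, while the ETS letters are CGGAAG and lie in 23.7%. The SP/KLF family was searched as GGGCGG, which is in 56.3%, and TEAD as GGAATG, which is in 12.2%. The letters searched for the last family, GATA factors, were AGATAA, found in 7.88%. Overlapping matches were all counted. A match is a run of letters, not a bound site.

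Among the matrix-binding integrins, 13 of 17 had a gene-end peak in J76 and 14 in 293T (of all genes, 64.6% in J76 and 69.7% in 293T). Peaks in both lines were found for 12 (60.7% of all genes), in J76 alone for 1 (3.94%) and in 293T alone for 2 (9.09%), which is near the shares over all genes. ITGB1, the beta chain that both leukocyte and matrix-binding alpha chains use, is counted apart. It had the highest J76 fold of all 37 members, 10.4 (chr10:32957466-32958884, percentile 94.3), and a 293T fold of 7.82 (chr10:32957831-32958958, percentile 85.8), both at its start. The beta chain that most of these receptors need was thus among the members with strong peaks in both.

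The collagen receptors ITGA1 and ITGA2, which are neighbours on chromosome 5, had start peaks in both lines. ITGA1 had a fold of 5.58 in J76 and 7.67 in 293T, and ITGA2 had 5.94 in J76 and 7.94 in 293T. The ITGA1 peaks are also at an end of PELO, so they are not assigned to a single gene. ITGA10, a collagen receptor of cartilage, had peaks in either line (3.98 in J76 and 7.68 in 293T), but at its far end, while its listed start had none. ITGA11, the collagen receptor of fibroblasts, was the matrix-binding integrin with a peak in J76 only. That peak was weak (chr15:68431970-68432169, fold 3.51, −log10 q 3.79, percentile 18.8), and it was lost once a −log10 q of 5 was required.

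All 4 laminin receptor genes had a peak in both lines. ITGA6, whose pairs bind laminin in epithelia and on many other cells, had a fold of 7.76 in J76 and 8.82 in 293T at its start. ITGA7, the laminin receptor of muscle, had 8.78 in J76 and 8.19 in 293T, at an end it shares with BLOC1S1. ITGA3, which binds laminins of epithelial basement membranes, had 7.17 in J76 and 7.22 in 293T. ITGB4, the hemidesmosome beta chain, had 5.89 in J76 and 3.43 in 293T. The ITGB4 peak of 293T was weaker than most of its list (−log10 q 3.97, percentile 25.5 by fold), and when a −log10 q of 5 was required the gene kept a peak in J76 only.

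Both matrix-binding alpha chains with a peak in 293T only were RGD receptors. ITGA5, which with ITGB1 forms the main fibronectin receptor, had a 293T peak of fold 5.24 over its start (chr12:54418654-54419893, −log10 q 23.3), and the nearest J76 peak was 3628 bp from a gene end. ITGA8, which with ITGB1 binds nephronectin and acts in kidney development, had a 293T peak of fold 6.39 over its start (chr10:15719034-15720393, −log10 q 33.8), with the nearest J76 peak 9291 bp away. The ITGA5 peak was 1240 bp wide with its summit 8 bp from the gene end, and the ITGA8 peak was 1360 bp wide with its summit 68 bp from the gene end. The ITGA11, ITGA8 and ITGA5 promoters are shown because each was overlapped by a peak of 1 line only; they lie at chr15:68432114-68432413, chr10:15719873-15720172 and chr12:54419217-54419516, all on the minus strand.
ITGA11: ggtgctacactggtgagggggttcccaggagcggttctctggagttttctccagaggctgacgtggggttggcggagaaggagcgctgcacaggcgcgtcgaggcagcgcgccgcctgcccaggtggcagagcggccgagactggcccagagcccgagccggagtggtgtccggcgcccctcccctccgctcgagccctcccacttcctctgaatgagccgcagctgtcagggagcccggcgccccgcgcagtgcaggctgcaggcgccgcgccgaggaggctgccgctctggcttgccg
ITGA8: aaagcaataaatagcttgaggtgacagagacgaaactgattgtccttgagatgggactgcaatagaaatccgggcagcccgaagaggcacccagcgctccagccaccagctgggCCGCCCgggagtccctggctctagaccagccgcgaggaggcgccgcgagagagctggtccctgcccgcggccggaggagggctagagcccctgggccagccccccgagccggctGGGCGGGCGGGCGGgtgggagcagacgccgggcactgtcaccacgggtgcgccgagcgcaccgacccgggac
ITGA5: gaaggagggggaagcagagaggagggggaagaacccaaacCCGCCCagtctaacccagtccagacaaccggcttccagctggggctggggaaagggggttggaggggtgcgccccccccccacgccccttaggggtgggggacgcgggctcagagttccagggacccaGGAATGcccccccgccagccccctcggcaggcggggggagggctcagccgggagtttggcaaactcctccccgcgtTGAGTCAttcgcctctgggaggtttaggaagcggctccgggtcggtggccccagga
Positions are counted from the listed start, whose first base is 1. The ITGA8 window held the SP/KLF letters at -136 and, overlapping one another, at -22, -18 and -14. The ITGA5 window held the SP/KLF letters at -210, the TEAD letters at -82 and the AP-1 letters at -6, and ITGA11 held none of the 6 motifs. The 3 windows had 29 (ITGA11), 27 (ITGA8) and 16 (ITGA5) CpG dinucleotides.

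Of the other RGD receptor genes, ITGAV, the alpha chain of the vitronectin receptors, had a start peak of fold 9.90 in J76 and 6.13 in 293T. ITGB3, its partner in osteoclasts and endothelium and the platelet beta chain, had 8.53 in J76 and 9.12 in 293T. ITGB8, which with ITGAV activates TGF-beta, had 4.83 in J76 and 6.03 in 293T. ITGA9, which binds tenascin and was classed apart from the RGD receptors, had 8.77 in J76 and 8.11 in 293T. ITGA2B, the platelet alpha chain, and ITGB6, the epithelial partner of ITGAV, had no gene-end peak in either line.

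ITGB5, another partner of ITGAV, differed by start site. RefSeq lists 3 starts for it. The outermost start had a J76 peak only (fold 4.94, chr3:124901355-124901629). About 14 kb inward, the other 2 starts lay under a peak in both lines, with a fold of 4.72 in J76 (chr3:124887146-124887875) and 7.58 in 293T (chr3:124886054-124887894). Its far end carried a shared peak too (5.03 in J76 and 4.51 in 293T). The call of both lines for this gene thus covers a start with a J76 peak only and starts with a peak in both.

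**Figure D2:**
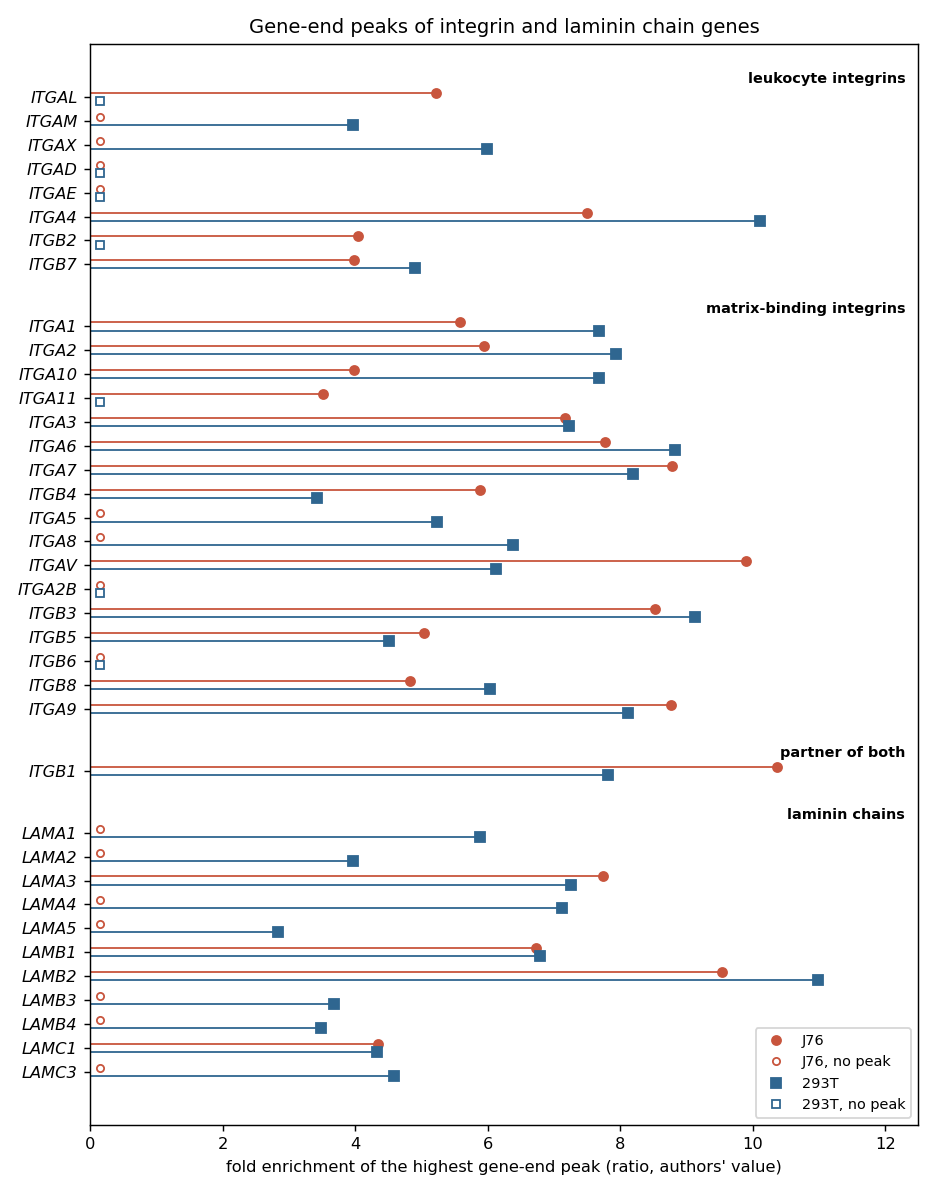
Fold enrichment (horizontal axis, the authors' ratio) of the highest gene-end peak of each of the 37 members in J76 (circles) and 293T (squares), 1 library each; open symbols beside the axis mark no peak. The 11 laminin chains all have a 293T symbol and 4 have a J76 symbol.

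Laminin chain genes leaned to 293T in gene-end peaks. Of the 11, 0 had one in J76 alone and 7 had one in 293T alone, and the other 4 had peaks in both. Of the 5 alpha chains, which set where a laminin is used and which receptor it meets, 4 were in 293T only. LAMA4, the alpha chain of vessel and fat basement membranes, had the strongest of these (fold 7.13, chr6:112253463-112254797, −log10 q 55.9), and the nearest J76 peak was 19956 bp from a gene end. LAMA1, the alpha chain of early embryonic and kidney tubule basement membranes, had a 293T fold of 5.88 (chr18:7116835-7118127, −log10 q 23.7), with the nearest J76 peak 11351 bp away.

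The other alpha chains in 293T only had weak peaks. LAMA2, the muscle alpha chain, had 2 narrow peaks at its start in 293T, of folds 3.96 (chr6:128882620-128882842) and 3.34 (chr6:128882996-128883216), and with lists of equal length neither was left. LAMA5, the alpha chain of most adult epithelia, had 2 as well, of folds 2.84 (chr20:62367001-62367404) and 2.78 (chr20:62366456-62366686), below percentile 7 of the list. LAMA3, the epidermal alpha chain, had peaks of J76 (7.73) and of 293T (7.25) at its outer end. Its single listed start lies further in and had none within 1 kb in either line.

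Among the 4 beta chains, LAMB1, found in most laminins, had a start peak in both lines, of fold 6.74 in J76 (chr7:108002751-108003563) and 6.79 in 293T (chr7:108002336-108003730). LAMB2, a beta chain of the neuromuscular junction and the glomerulus, was counted in both because of a peak at its far end (9.53 in J76 and 11.0 in 293T), which is also an end of USP19. At its own start, a peak was called in 293T only (fold 6.48, chr3:49132542-49133993, −log10 q 26.4). LAMB3, the beta chain of the epidermal laminin, had a 293T peak of fold 3.67 at one of its 3 listed starts (chr1:209651071-209651569). LAMB4 had 2 weak 293T peaks, of folds 3.49 and 2.78, one near each end, and had none once a −log10 q of 5 was required or with lists of equal length.

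Of the 2 gamma chains, LAMC1, which is in most laminins, had a peak in both lines with nearly the same fold, 4.34 in J76 and 4.33 in 293T. The 293T peak spanned 2080 bp across the start (chr1:183022371-183024450, −log10 q 47.9). The J76 peak spanned 770 bp and began 118 bp inside the gene (chr1:183023538-183024307, −log10 q 6.73). LAMC3 had a 293T peak of fold 4.59 at its lower-coordinate end (chr9:131008960-131009175), and a J76 peak lay 1652 bp away, just outside the window. At 2.5 kb LAMC3 therefore counted in both lines. When a −log10 q of 5 was required, 6 laminin chains were in 293T only and 4 had peaks in both.

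Of the laminin chains, 9 have a listed start, which tells a start from a far end. A peak lay within 1 kb of a start in J76 only for 0, in 293T only for 6, in both lines for 2 and in neither for 1. Over the 15812 protein-coding genes with a listed start, the shares were 3.35% (J76 only), 8.27% (293T only), 63.5% (both) and 24.9% (neither). The 12 matrix-binding integrins with a listed start had a peak there in J76 only for 1, in 293T only for 2, in both for 6 and in neither for 3. Of the 4 leukocyte integrins with one, ITGA4 had a peak in both lines and ITGAM, ITGAE and ITGB7 in neither. The LAMA4 and LAMB3 promoters are shown because each was overlapped by a peak of 293T only. Like ITGA8 and ITGA5, they were taken in order of fold among members with a gene-end peak in 293T only. They lie at chr6:112254518-112254817 (-) and chr1:209651325-209651624 (-) and hold few CpG (8 and 3 dinucleotides).
LAMA4: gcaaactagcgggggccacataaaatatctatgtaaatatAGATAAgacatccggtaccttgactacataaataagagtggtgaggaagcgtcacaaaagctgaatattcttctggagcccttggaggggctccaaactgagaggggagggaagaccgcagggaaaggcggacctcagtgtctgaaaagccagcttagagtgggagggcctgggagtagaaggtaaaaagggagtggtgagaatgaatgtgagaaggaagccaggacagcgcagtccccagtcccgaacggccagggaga
LAMB3: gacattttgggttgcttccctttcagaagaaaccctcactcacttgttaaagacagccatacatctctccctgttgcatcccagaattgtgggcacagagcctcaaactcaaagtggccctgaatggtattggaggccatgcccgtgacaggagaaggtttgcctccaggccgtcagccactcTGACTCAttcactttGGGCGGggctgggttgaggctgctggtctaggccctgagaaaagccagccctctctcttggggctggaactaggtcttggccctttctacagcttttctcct
The LAMA4 window held the GATA letters at -210. The LAMB3 window held the AP-1 letters at -67 and the SP/KLF letters at -52. Over the 33 listed promoter windows of the members, AP-1 letters occurred in 3 (9.09%, against 6.15% of all promoters), TEAD letters in 12.1% (against 12.2%) and SP/KLF letters in 19 (57.6%, against 56.3%). RUNX letters were in 9.09% (against 11.3%), ETS letters in 18.2% (against 23.7%) and GATA letters in 6.06% (against 7.88%).

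CpG content ran with the presence of a peak among these genes much as it did over all promoters. All 15 member windows with 16 or more CpG dinucleotides were overlapped by a peak of at least 1 line, against 91.1% of 13418 such windows of all genes. Of the 9 member windows with 5 or fewer, 1 was overlapped, against 14.9% of 4727. The exception was the LAMB3 start shown above. Windows with a peak in both lines had a median of 28 CpG (11 windows), those with one in 293T only 15.5 (8 windows) and those with none 3 (12 windows). The largest counts, 41 each, were at LAMA5 and LAMC1, whose windows were overlapped in 293T only.

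**Figure D3:**
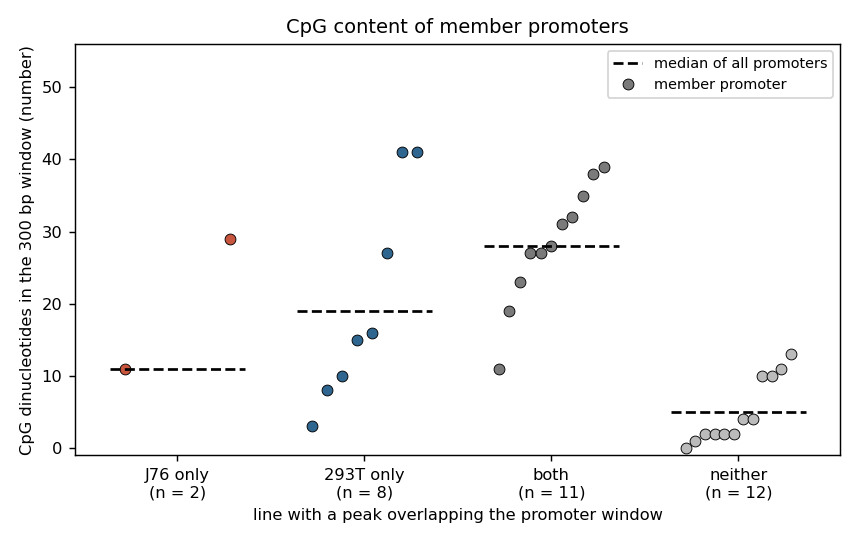
CpG dinucleotides in each of the 33 promoter windows of 300 bp at members' listed starts (vertical axis, number), grouped by the line whose peak overlaps the window; dashed lines are medians over all promoters. The 12 windows with no peak hold between 0 and 13 CpG, and the 11 with a peak in both lines between 11 and 39.

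Distal peaks were counted around the same classes. A distal peak has its summit over 1 kb from any protein-coding gene end, and it was counted here if it lay within 50 kb of a member's ends and overlapped no peak of the other line. Around the leukocyte integrins there were 23 J76-only and 17 293T-only peaks. Around the matrix-binding integrins there were 29 J76-only and 57 293T-only peaks, and around the laminin chains 17 J76-only and 53 293T-only. The classes were not uniform: the alpha chains that pair with ITGB2 had 3 J76-only and 6 293T-only, while ITGB2 and ITGAE had 8 J76-only each, and the laminin receptors among the matrix-binding integrins had 10 J76-only and 8 293T-only. ITGAM, ITGAX and ITGAD are neighbours, as are ITGA1 and ITGA2 and also LAMB1 and LAMB4, and a peak near several members counts once in these totals. Counted per member, the mean was 3.25 J76-only and 2.5 293T-only peaks for leukocyte integrins, 1.76 J76-only and 3.41 293T-only for matrix-binding integrins, and 1.64 J76-only and 5.18 293T-only for laminin chains. The mean over all genes was 1.52 J76-only and 2.33 293T-only peaks.

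By member, J76-only distal peaks outnumbered 293T-only ones at 4 leukocyte integrins and were fewer at 2. For matrix-binding integrins the counts were 6 with more and 7 with fewer, and for laminin chains 1 with more and 8 with fewer. Among all genes, 30.5% had more J76-only peaks and 49.0% more 293T-only peaks. LAMA5 was the laminin gene that went the other way, with 4 J76-only peaks and 1 293T-only peak.

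**Figure D4:**
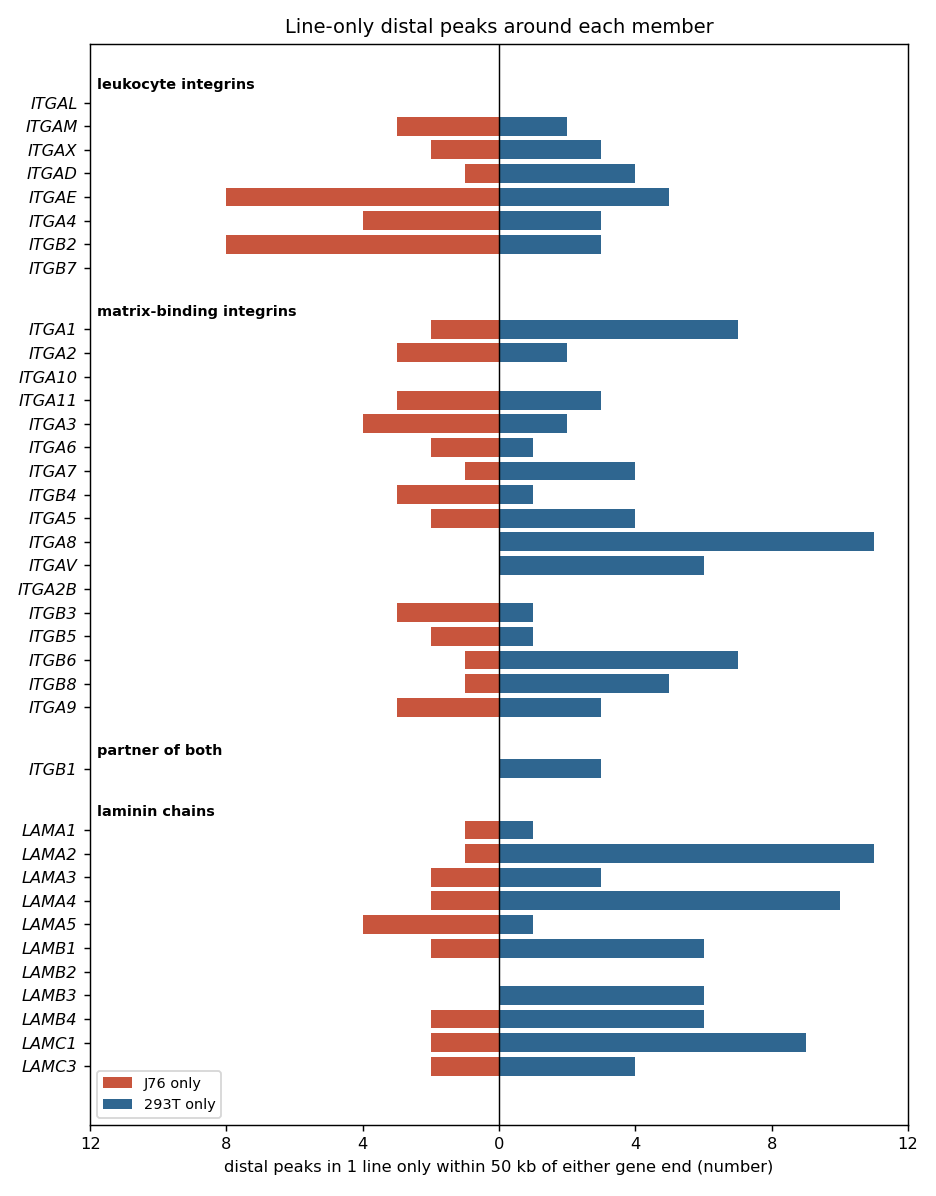
Number of distal peaks called in 1 line only within 50 kb of either end of each member, J76 to the left and 293T to the right of 0. ITGB2 and ITGAE reach 8 on the J76 side, and ITGA8, LAMA2 and LAMA4 reach 11, 11 and 10 on the 293T side.

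The largest J76-only counts were at the leukocyte integrins ITGB2 and ITGAE, with 8 J76-only peaks each, a number that 0.666% of all genes reach. ITGB2 had 3 293T-only peaks. One of its 8 is the gene-end peak above, whose summit lies 1169 bp from the end. Its strongest (fold 8.02, chr21:44854418-44855438) lay 31.1 kb outside the gene, within PTTG1IP. At ITGAE, which had no gene-end peak, 7 of the 8 J76-only peaks and 4 of the 5 293T-only peaks were inside the gene. HASPIN lies within ITGAE, and its ends are the nearest to several of them. The strongest J76-only peak of the class (fold 10.5, chr2:181410871-181411797, percentile 94.8) lay 46.0 kb outside ITGA4, which had 4 J76-only and 3 293T-only peaks. The next in J76 after the ITGB2 peak lay 18.6 kb outside ITGAE, within P2RX5 (fold 6.35, chr17:3695567-3696382). In 293T the strongest was 21.7 kb outside ITGAX and inside ITGAD (fold 9.52, chr16:31404157-31404937), followed by 2 inside ITGAE (6.41, chr17:3737723-3738350, and 6.14, chr17:3754549-3755267).

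The largest 293T counts lay at an RGD receptor and at laminin chains. ITGA8 had 11 293T-only and 0 J76-only peaks, and all 11 had an ITGA8 end as the nearest gene end. They lay within the gene (6 peaks) or up to 41.8 kb outside it (5 peaks), with the strongest 5.94 kb from the start (fold 6.87, chr10:15725076-15726022). LAMA2 had 1 J76-only and 11 293T-only peaks, LAMA4 had 2 J76-only and 10 293T-only, and LAMC1 had 2 J76-only and 9 293T-only. Of all genes, 1.09% had at least 11 293T-only peaks and 2.60% at least 9. ITGA8, LAMA2, LAMA4 and LAMC1 are each over 100 kb long, so more sequence was searched at them than at shorter genes. ITGAV, which had a strong start peak in both lines, had 0 J76-only and 6 293T-only peaks, and ITGB1 had 0 J76-only and 3 293T-only, the strongest of fold 9.34 and 47.6 kb from the gene.

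Single strong J76-only distal peaks also stood near laminin chain genes. The strongest was 11.7 kb outside LAMA1 (fold 10.4, chr18:6929358-6930391, percentile 94.4), the next was inside LAMA3 (fold 8.68, chr18:23712257-23713176), and another was 31.2 kb from LAMA4 (fold 6.11, chr6:112285960-112286537). On the 293T side the strongest were 10.7 kb from LAMC3 (fold 7.84, chr9:130998316-130998643), in CAMK1G beside LAMB3 (7.67, chr1:209590491-209590784) and 41.3 kb from LAMA4 (7.10, chr6:112296156-112296467). For matrix-binding integrins the strongest were, in J76, 26.9 kb from ITGA3 (6.86, chr17:50117238-50117544) and, in 293T, 38.2 kb from ITGA7 (9.02, chr12:55645995-55647176). The next in J76 were 21.1 kb outside ITGA9 (6.28, chr3:37430678-37431353) and inside it (5.53, chr3:37466724-37467214), and the next in 293T was inside ITGB3 (8.04, chr17:47276825-47277196). The peak near ITGA7 is closest to OR10P1, and the one near ITGA3 is closest to PDK2.

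**Figure D5:**
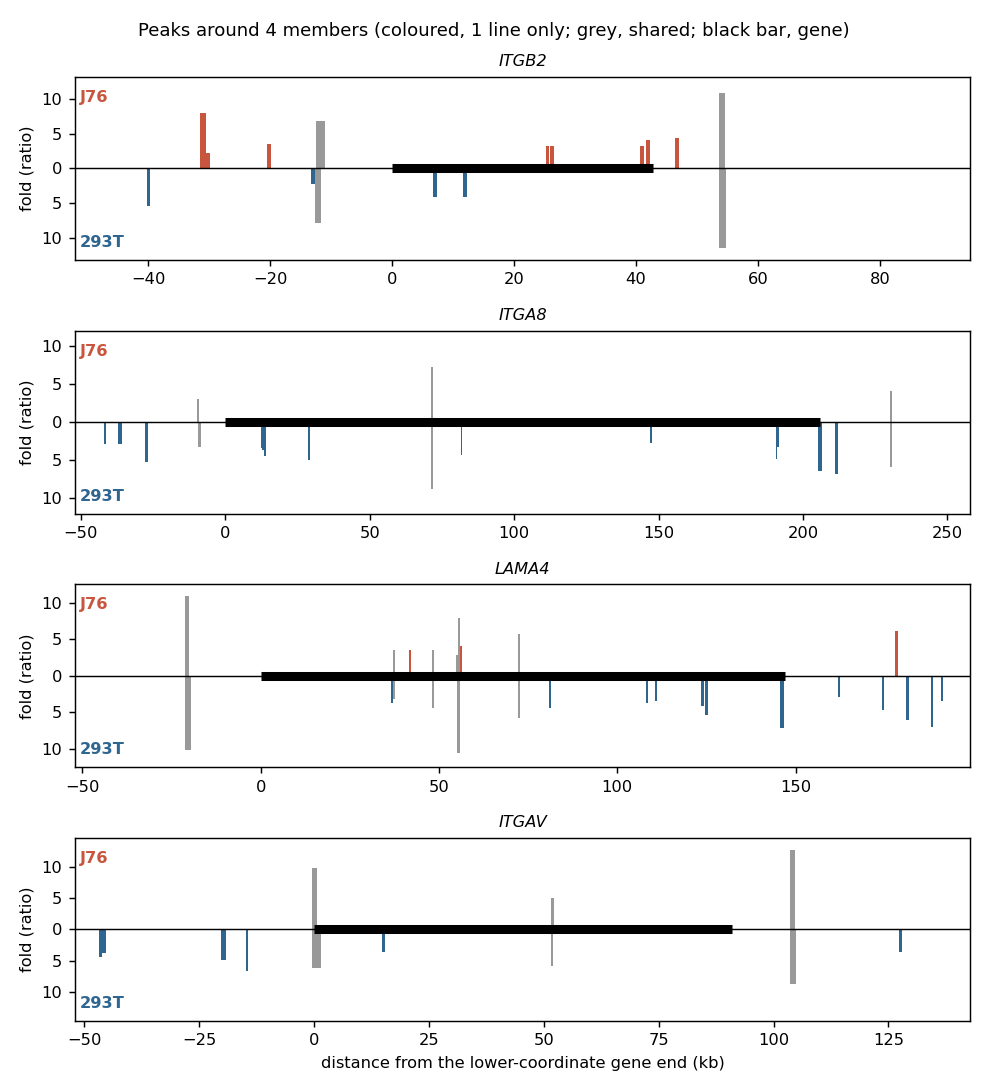
Peaks of J76 (upward) and 293T (downward) from 50 kb before to 50 kb after ITGB2, ITGA8, LAMA4 and ITGAV, by distance from the lower-coordinate gene end (horizontal axis, kb) and fold (vertical axis, ratio); narrow peaks are drawn 0.6 kb wide to be visible. ITGA8 has 14 293T-only peaks and 0 J76-only peaks in its panel, and ITGB2 has 8 J76-only and 4 293T-only.

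The distal counts moved with the number of peaks in the wider region. Within 1 Mb of the gene's midpoint, the ratio of all 293T to all J76 peaks had a median of 1.14 over the leukocyte integrins, 1.18 over the matrix-binding integrins, 2.06 over the laminin chains and 1.14 over all genes. It was 4.76 at ITGAV (21 J76 and 100 293T peaks), 3.19 at LAMA2, 2.5 at LAMA4 and 1.63 at ITGA8. The 6 laminin chains that lay where this ratio was above that of the whole lists, 1.45, held 8 J76-only and 44 293T-only distal peaks. The other 5 laminin chains held 9 J76-only and 9 293T-only. Among matrix-binding integrins, the 5 genes above the ratio held 4 J76-only and 33 293T-only peaks, and the 12 at or below it held 25 J76-only and 24 293T-only. Over all genes, the mean per gene was 1.06 J76-only and 3.77 293T-only distal peaks above the ratio. At or below it, the mean was 1.72 J76-only and 1.71 293T-only. Near-equal counts at or below the ratio are thus not particular to these members. The regional ratio includes the distal peaks themselves, and its part in the distal counts was not tested.

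The gene-end calls were grouped by the same regional ratio. Of the 6 laminin chains above the ratio of the whole lists, 4 had a gene-end peak in 293T only (14.3% of all genes in such regions). Of the 5 at or below it, LAMA1, LAMA5 and LAMC3 did (6.84% of all genes in such regions). The LAMA5 peaks were weak (highest fold 2.84), and LAMC3 counted in both lines with a window of 2.5 kb. The ratio includes the gene-end peaks too, and its part in these calls was not tested. ITGA5 and ITGA8, the integrins in 293T only among the matrix-binding class, both lay above it.

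Adaptor genes, whose products link integrins to the cytoskeleton, were spread over the classes about as all genes were. Of 25, 17 had a gene-end peak in both lines (60.7% of all genes), 1 had one in J76 alone (3.94%), 3 had one in 293T alone (9.09%) and 4 had none (26.3%). The J76-only gene was FERMT3, the kindlin of blood cells that activates integrins (fold 5.01, chr11:64206442-64206979), although a 293T peak lay 1075 bp from its ends, just outside the window. The kindlin FERMT1 was counted in both by a shared peak at its lower-coordinate end (J76 fold 5.31, 293T fold 4.59). Its upper-coordinate end had a stronger peak (8.94), called in 293T only. FERMT2, another kindlin with folds of 6.45 (J76) and 6.44 (293T), was likewise a gene counted in both. Those in 293T only were PARVA (8.70), which joins integrin-linked kinase to actin, TNS3 (7.58), a tensin, and LIMS2 (4.01), which had peaks of both lines at its listed starts. VCL, which encodes vinculin, had a fold of 10.1 in J76 and 8.93 in 293T, and PTK2B, a focal adhesion kinase relative, had 9.97 in J76 and 11.3 in 293T. The PTK2B peaks are also at an end of TRIM35, so they are not assigned to a single gene.

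Of 20 genes for ligands and basement membrane components, 7 had a gene-end peak in both lines (60.7% of all genes) and 3 had one in J76 alone (3.94%). A further 8 had one in 293T alone (9.09%), and 2 had none (26.3%). In J76 only were SPP1, which encodes osteopontin (7.17), and the LFA-1 ligands ICAM2 (6.59) and ICAM1 (2.73). The ICAM1 peak is also at an end of ICAM4, and the listed ICAM1 start had none. In 293T only were TNC, a tenascin that ITGA9 pairs bind (6.58), NPNT, the nephronectin that ITGA8 pairs bind (6.24), NID1, which links laminin to collagen IV (5.57), and MADCAM1 (3.28). The collagen IV genes COL4A1 and COL4A2 were also in 293T only, by 1 peak at an end of each (5.52). So were COL4A5 and COL4A6, by 1 peak at an end of each (4.09), and COL4A6 had another 293T-only peak (3.93). NID2, the second nidogen, had a fold of 3.53 in J76 and 10.8 in 293T.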

How the data were processed

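ATAC-seq was made on 1 library each of J76 and 293T. Per the submitters' processing notes, the tools included Bowtie2 and MACS2. For versions, settings, build and any shift of cut sites, the sources used here give nothing. The authors deposited 1 narrowPeak list per library, with a fold enrichment (a linear ratio), p-values and q-values as −log10, and an integer score, equal to 10 times the −log10 q in 100% of J76 and 99.996% of 293T peaks, which was not used further. The weakest peak had a −log10 q of 1.32 (J76) or 1.37 (293T). Peaks on the autosomes and chromosome X (58730 in J76, 84951 in 293T) were used, as GRCh38, the build to which the contig names belong, with positions counted from 1.

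Genes came from RefSeq (GRCh38.p14), and transcription starts and promoter sequences from a RefSeq table that matched 26 of the 37 members. ITGAL, ITGAX, ITGAD, ITGB2, ITGB3, ITGB4, ITGA3, ITGA7, ITGA9, LAMA1 and LAMC3 were not matched, so their gene ends are given by coordinate. Peaks of the 2 lines with 1 bp or more in common counted as shared. Overlaps were computed in Python 3.11.15 with numpy 2.4.6 and pandas 2.3.3 and tested on simulated data. Folds and −log10 values describe and rank peaks within their own list.

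With 1 library per line no test was made; counts stand beside those over all genes. All members were named, with full values for those with a peak in 1 line only, up to 4 per class with one in both, and the 3 strongest distal peaks per class and line; ITGB5, ITGA10, LAMC1 and other members described beyond this were chosen after their values were seen, as was the grouping by regional ratio. For adaptors and ligands, up to 4 genes per call were to be named, highest fold first, and those beyond were chosen after their values were seen. The members and lists were chosen with earlier results of these data known. Results were recomputed with a −log10 q of 5 or more, with lists of equal length (58730 peaks), other windows, distances and overlaps, and members with no other gene end within 2 kb.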

Additional observations from a re-analysis of the deposited data

How the results depend on the processing

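The 12 counts of the 3 classes were recomputed under 5 other settings each, and under 1 (gene ends) or 2 (distal peaks) more that were chosen after seeing the data; 56 of 78 values stayed within 1.5 times the reported count. With a window of 500 bp, leukocyte integrins with a gene-end peak fell to 2 in J76 and 2 in 293T, because ITGB2, ITGAM and ITGB7 were lost. At listed transcription starts, which fewer members have, the counts were 1 leukocyte integrin in J76 and 1 in 293T, 7 matrix-binding integrins in J76 and 8 in 293T, and 2 laminin chains in J76. Among members with no other gene end within 2 kb, 8 of 12 matrix-binding integrins had a peak in J76. At a −log10 q of at least 5, 17 J76-only distal peaks were left around the matrix-binding integrins. Within 25 kb there were 10 293T-only distal peaks at leukocyte integrins, 15 J76-only and 31 293T-only at matrix-binding integrins, and 11 J76-only and 27 293T-only at laminin chains. Within 100 kb there were 46 J76-only and 104 293T-only at matrix-binding integrins and 41 J76-only and 81 293T-only at laminin chains. Over the gene body and 50 kb around it, laminin chains had 29 J76-only and 83 293T-only. Peaks whose nearest gene end belongs to a member numbered 9 (293T-only) at leukocyte and 35 (293T-only) at matrix-binding integrins. With lists of equal length, the distal counts were 24 J76-only and 13 293T-only at leukocyte integrins, 30 J76-only and 39 293T-only at matrix-binding integrins and 19 J76-only and 36 293T-only at laminin chains, and 5 laminin chains remained in 293T only, with LAMA2 and LAMB4 left without a peak. The shares and means over all genes are given here for the full lists only, so these counts have no matching background. Of the members' own classes, 34 of 37 stayed the same at a −log10 q of 5 or more and 34 with lists of equal length. With a window of 500 bp 32 stayed the same, and with one of 2.5 kb 35 did. A stricter threshold, shorter list or smaller window only removes peaks, and a larger window only adds them. These settings therefore cannot turn J76 only into 293T only, or the reverse. A total of 4 peaks of members, including the ITGB2 and LAMB3 gene-end peaks, overlap the 1 kb window but have their summit outside it and so also count as distal. No paired analysis was possible because each line has 1 library and no test was made. The depth of both lists is unknown, which limits every statement on a missing peak.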

Other observations

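Long members hold peaks deep in the gene that the 50 kb limit leaves out. Counted over the whole gene and 50 kb around it, LAMA2, which spans 633429 bp, had 7 J76-only and 36 293T-only distal peaks, against 1 J76-only and 11 293T-only within 50 kb of its ends. ITGA9, the alpha chain of tenascin receptors (371367 bp), had 10 J76-only and 12 293T-only on the same count, against 3 of each within 50 kb. ITGA8 had 0 J76-only and 13 293T-only, so no J76-only distal peak was called in this gene or its flanks. ITGA1 had 2 J76-only and 10 293T-only. At LAMA3 the order turned, with 5 J76-only and 4 293T-only peaks over the whole gene, against 2 J76-only and 3 293T-only within 50 kb of its ends.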
